A study of Mus musculus with 12 samples.

Results

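HAFs that received E2 together with fulvestrant were compared with HAFs that received vehicle, which asks how the transcriptome of cells with blocked ESR1 differs from that of cells given neither hormone nor blocker. The comparison rests on 6 of the 12 RNA-Seq samples of the series, 3 of each group, chosen by their treatment label and paired by replicate number, and covers all 13233 genes with a deposited value. HAFs are fibroblasts cultured from the LAM, the lower abdominal muscle that weakens into scrotal hernia in male Aromhum mice. All groups share the Aromhum genotype, a transgene that carries human aromatase, the enzyme that turns testosterone into E2, under its own human promoters. The vehicle cells received ethanol and DMSO. The E2 plus fulvestrant cells received 10 nM E2 and 100 nM fulvestrant, and both groups were taken at 48 h. The groups given 10 nM E2 alone or 100 nM fulvestrant alone for 48 h, with 3 samples each, served to ask where the combination differed from either agent. How many mice gave the cells, and their age, is not given in the sources used here, and the labels do not say that replicates came from separate animals, so each p-value measures the spread between these samples, which may be technical.

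ESR1 is a ligand-activated transcription factor that E2 switches on and that fulvestrant both blocks and marks for degradation. In fibroblasts it shares its coregulators with the other steroid receptors, among them the progesterone receptor, whose gene Pgr is a standard target of ESR1, and the glucocorticoid receptor, which acts on genes such as Fkbp5, Tsc22d3 and Per1. Fibroblasts of the abdominal wall make the collagens, elastic fibers and proteoglycans of the matrix, and answer to TGF-β, Wnt, growth factor and guidance signals that steer muscle and connective tissue.

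Depth, as reads on the genes of the table, was 26280424 to 44040507 per vehicle sample and 30005469 to 34049769 per E2 plus fulvestrant sample, with no gene under 10 reads in a sample. Values are normalized counts, in which the reads of a sample are divided by its size factor, and differences are log2(normalized count + 1) of E2 plus fulvestrant minus vehicle, given with the SE of the paired fit (n = 3 pairs). Replicate 1 of both groups stood apart from replicates 2 and 3: the first principal component, with 74.4% of the variance of the 6 samples, held replicate 1 at −60.7 and −41.4 and the other 4 samples between 16.6 and 34.2. Chi-square per gene between the reads of replicates 2 and 3 was 12.4 with vehicle and 4.3 with both agents. For replicate 1 against either it was 182 to 211. Whether the 3 pairs are independent sources is not known, and if they are not, the p-values overstate the replication. The second component, with 15.6%, separated the treatments, from −16.6 to −15.5 with vehicle and from 10.6 to 26.7 with both agents. All 12 fibroblast markers were present, with a summed level of 643809 to 738405 with vehicle and 598103 to 703933 with both agents, and Lum, Thy1 and Dpt among them were lower. None of 11 myogenic markers was listed, Pax7, Myod1 and Des included, while 2 of 10 endothelial, 2 of 12 immune and 6 of 9 tendon and cartilage markers were. The summed tendon and cartilage markers ranged from 7467 to 33603 with vehicle and from 5541 to 19559 with both agents, and Tnmd, Mkx, Fmod and Comp were lower. In bulk RNA, fewer cells of a type and less RNA per cell cannot be told apart.

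Esr1 itself (ENSMUSG00000019768, chr10:4611593-5005614, + strand, GRCm38) was lower with E2 plus fulvestrant. Its normalized counts were 515, 247 and 283 in vehicle replicates 1 to 3 and 216, 87.1 and 76.4 with both agents. Every treated sample lay below every vehicle sample, and the log2 difference was −1.54 ± 0.15 (adjusted p = 0.00199), a 2.91-fold decrease. With E2 alone the log2 difference of Esr1 from the same vehicle samples was 0.72 ± 0.13, and with fulvestrant alone −1.46 ± 0.17. Pgr, the progesterone receptor gene, had 25.4, 85.3 and 104 with vehicle and 14.8, 28.4 and 27.0 with both agents. It fell in each pair, yet replicate 1 of vehicle lay below 2 treated samples, so the groups overlapped (log2 difference −1.40 ± 0.28, adjusted p = 0.0196). The call on Pgr was lost without replicate 2 (adjusted p = 0.108) and without replicate 3 (adjusted p = 0.153). E2 alone gave Pgr a log2 difference of 1.88 ± 0.20 and fulvestrant alone one of −1.82 ± 0.35.

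Among the other steroid receptors, Nr3c1, the glucocorticoid receptor gene, had 12120.0, 8502 and 9069 with vehicle and 7741, 7491 and 7302 with both agents, groups that did not overlap (log2 difference −0.38 ± 0.09, adjusted p = 0.0377). Nr3c2, the mineralocorticoid receptor gene, had a log2 difference of −0.46 ± 0.18 and was not called (adjusted p = 0.136). Thus 4 of 5 receptor genes tested were lower, where 5.46% of all genes were called lower, and their median log2 difference was −0.46 against 0.01 over all genes. Of 8 coregulators and pioneer factors 2 were lower, with the transcriptional coregulator Cited2 at −0.41 ± 0.06, while Nrip1, a corepressor, had a difference of 0.32 ± 0.10 that did not pass (adjusted p = 0.0796). Pdgfra, the surface receptor that marks HAFs, had 25827, 33942 and 36292 with vehicle and 23569, 31424 and 30814 with both agents, and was not called (log2 difference −0.16 ± 0.09, adjusted p = 0.251). Calls lost when a replicate was left out of both groups were those of Nr3c1 without replicate 1 (log2 difference −0.25, a fold change under 1.2), and of Nr3c1 without replicate 2 (adjusted p = 0.0555) or without replicate 3 (adjusted p = 0.153). The log2 difference that moved over 1.5 times without replicate 1 became −0.25 for Nr3c1.

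**Figure D1:**
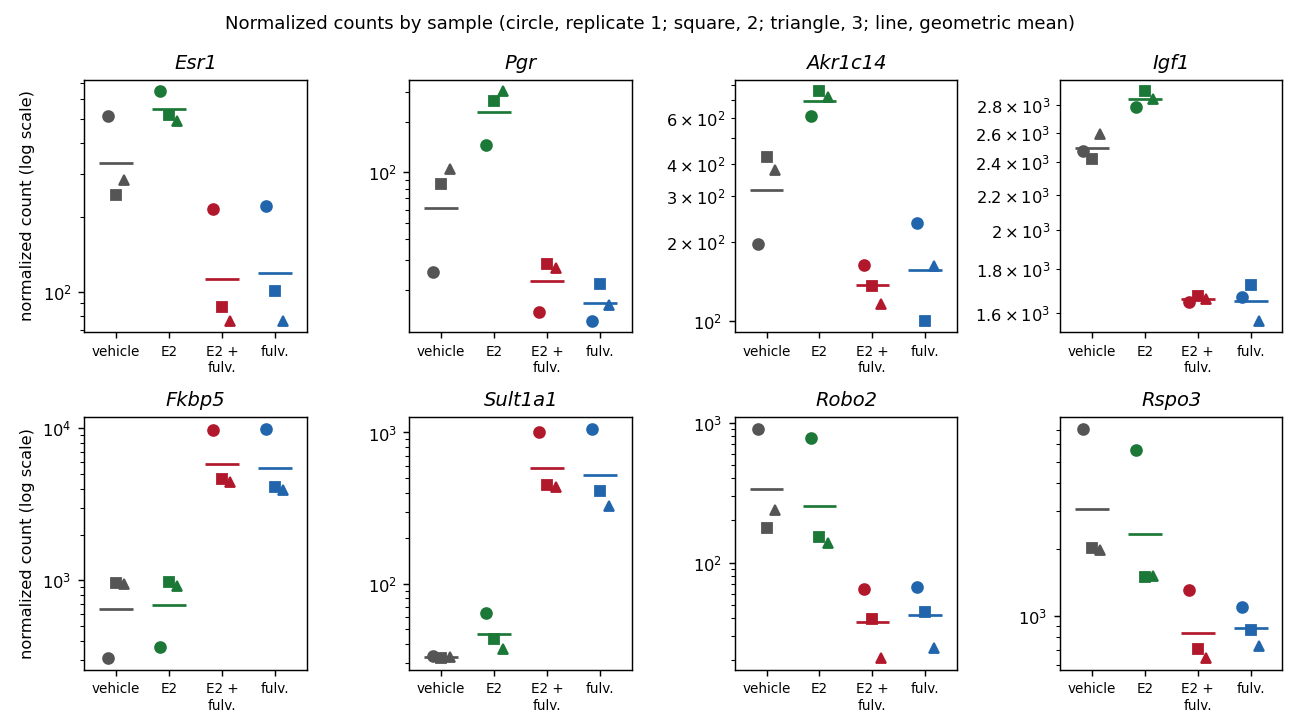
Normalized counts on a log axis of 8 genes in the 12 samples, by treatment, where the circle, square and triangle are replicates 1, 2 and 3 and the line is the geometric mean of a group. Esr1, Akr1c14, Igf1, Robo2 and Rspo3 lay lower and Fkbp5 and Sult1a1 higher in every E2 plus fulvestrant sample than in any vehicle sample, whereas Pgr overlapped.

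Gene groups, which were chosen with earlier results of these data known, differed in the direction they took with E2 plus fulvestrant. Called higher were 21 of 28 glucocorticoid-responsive genes, 16 of 26 immediate early genes, 12 of 34 heat shock genes and 10 of 20 glycolysis genes, and called lower were 15 of 42 Wnt genes, 24 of 76 guidance and adhesion genes, 20 of 59 noncollagen matrix genes and 10 of 22 interferon response genes. In the same order, these counts were 21, 9, 4 and 3 higher and 8, 14, 13 and 3 lower without replicate 2, 11, 4, 3 and 2 higher and 6, 9, 9 and 1 lower without replicate 3, and 6, 4, 4 and 1 higher and 6, 8, 10 and 3 lower with no variance trend. Without the replicate block 1 gene of these 8 groups was called, a glucocorticoid-responsive one. In the paired fit, 889 genes (6.72% of those tested) were higher and 723 (5.46%) lower with E2 plus fulvestrant than with vehicle, at an adjusted p under 0.05 and a fold change over 1.2. Each of the 1612 genes moved the same way in 3 of 3 pairs, which the paired test favors, and over all genes 3766 were higher and 3254 lower in 3 of 3 pairs. Fitted without the block, the same values gave 2 higher genes, Pi16 and Map3k6, and 1 lower gene, Gas2, which is 0.0227% of genes, and 945 genes at an unadjusted p under 0.05. Per-sample scaling to CPM turned the majority, from 889 higher and 723 lower (55.1% higher) to 643 higher and 884 lower (42.1% higher), and a fit with no variance trend gave 168 and 224 (42.9% higher). In 13.9% of all genes the 3 values of one group lay above the 3 of the other, and 684 called genes did so, of which 351 were higher and 333 lower, so the others overlapped although each pair moved the same way. Most changes were small: 280 higher and 342 lower genes passed a fold change of 1.5, and 6 higher and 9 lower genes passed 4. Without replicate 1 the counts were 1183 higher and 976 lower, without replicate 2 they were 340 and 310, and without replicate 3 they were 187 and 165.

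The largest rise was that of Sult1a1, a phenol sulfotransferase that adds sulfate to small phenols and steroids. It had 33.1, 32.2 and 32.8 with vehicle and 1001, 452 and 435 with both agents. The vehicle samples were close to each other and all far below the treated samples, of which replicate 1 was the highest (log2 difference 4.11 ± 0.24, adjusted p = 0.0005, 17.3-fold). Fkbp5, the cochaperone that holds the glucocorticoid receptor in a low-affinity state (ENSMUSG00000024222, chr17:28399094-28517527, − strand), was the next largest, with 307, 956 and 941 against 9832, 4619 and 4449. Its order of replicates turned, since replicate 1 was the lowest with vehicle and the highest with both agents (log2 difference 3.17 ± 0.49, adjusted p = 0.00924). Ppl, which encodes the cytoskeletal linker periplakin, rose from 37.5, 131 and 131 to 586, 665 and 646 (2.85 ± 0.31, adjusted p = 0.00286). Pi16, a secreted protein that marks adventitial fibroblasts, rose from 80.5, 73.1 and 87.7 to 646, 522 and 504, with nearly the same step in each pair (2.77 ± 0.13, adjusted p = 0.00027). Ace, the angiotensin-converting enzyme, had 50.7, 366 and 349 with vehicle and 389, 992 and 1095 with both agents. The lowest treated sample of Ace, replicate 1, stood just above the highest vehicle sample, and the log2 differences of the pairs were 2.91, 1.44 and 1.65 (adjusted p = 0.00527). Adgrg2, an adhesion G protein-coupled receptor, went from 184, 255 and 253 to 665, 1022 and 938 with the smallest SE of the 12 (1.91 ± 0.08, adjusted p = 0.00023). Each of these calls was kept without any one replicate.

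The other 6 of the 12 largest rises were Map3k6, a MAP kinase kinase kinase (log2 difference 2.19 ± 0.13), Ramp2, which carries the calcitonin receptor-like receptor to the surface (2.10 ± 0.14), Acss3, a mitochondrial acyl-CoA synthetase (1.97 ± 0.24), Ctla2a, a cysteine protease inhibitor (1.94 ± 0.12), Ccdc3, a secreted protein (1.80 ± 0.18) and Nxph3, a neurexin ligand (1.74 ± 0.24). Of the annotated exon sequence of Ramp2, 33.4% is shared with a neighboring gene of that strand, and 16.3% of that of Ctla2a, so their reads may be shared. In all 12 the lowest treated sample lay above the highest vehicle sample, as the rule that chose them required. Leaving out a replicate ended the calls of Nxph3 without replicate 3 (adjusted p = 0.0597).

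The largest fall was that of Robo2, a receptor for Slit guidance proteins (ENSMUSG00000052516, chr16:73891839-74411825, − strand). It had 908, 177 and 236 with vehicle and 65.0, 39.4 and 20.7 with both agents, and replicate 1 was the highest in both groups (log2 difference −3.12 ± 0.30, adjusted p = 0.00201, an 8.72-fold decrease). Col14a1, a collagen that sits on the surface of collagen I fibrils, fell from 1024, 282 and 325 to 60.1, 99.9 and 105 (−2.39 ± 0.46, adjusted p = 0.0185). Its vehicle replicate 1 was the highest sample and its treated replicate 1 the lowest, so that pair showed the largest step. Rspo3 and Rspo2 encode R-spondins, which raise the response of cells to Wnt by removing the ligases that clear Frizzled receptors. Rspo3 had 7080.2, 2023 and 1979 with vehicle and 1303, 704 and 641 with both agents (−1.86 ± 0.16, adjusted p = 0.00155). Rspo2 had 6625, 2277 and 2174 and 1189, 822 and 779 (−1.81 ± 0.19, adjusted p = 0.00241). In both, replicate 1 was the highest of its group, and no treated sample reached the lowest vehicle sample. Sfrp2, a secreted Wnt-binding protein, had 1222, 2523 and 2375 and 136, 1091 and 1131, with replicate 1 the lowest of each group (−1.81 ± 0.36, adjusted p = 0.0211). No longer called were Col14a1 and Sfrp2 without replicate 3 (adjusted p from 0.0638 to 0.0718). Leaving out replicate 1 moved the log2 differences by over 1.5 times, to −1.55 for Col14a1 and −1.14 for Sfrp2.

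Foxp2, a forkhead transcription factor, fell from 82.7, 60.0 and 54.9 to 14.8, 11.0 and 15.3, low counts throughout (−2.18 ± 0.25, adjusted p = 0.00351). Ifi44, an interferon-induced gene, fell from 64.0, 79.2 and 79.0 to 18.7, 11.9 and 17.1 (−2.17 ± 0.25, adjusted p = 0.00382). The remaining largest falls were Ryr3, a calcium release channel (−2.17 ± 0.43), the integrin α8 ligand Npnt (−2.12 ± 0.42), the leucine-rich repeat protein Lrrn3 (−2.09 ± 0.50), the secreted EGF-like protein Egfl6 (−2.05 ± 0.29) and Chodl, a lectin-like membrane protein (pairs at −2.16, −2.37 and −1.47, adjusted p = 0.00305). In Ryr3, Npnt and Lrrn3 vehicle replicate 1 lay far above the other samples, at 835, 4704 and 4335 normalized counts, and pair 1 had the largest step. The calls that depended on a replicate were those of Lrrn3 without replicate 2 (adjusted p = 0.0558) or without replicate 3 (adjusted p = 0.0897), and of Ryr3 and Npnt without replicate 3 (adjusted p from 0.0666 to 0.0839). With replicate 1 left out, the log2 difference moved by over 1.5 times to −1.44 for Ryr3, −1.34 for Npnt and −1.17 for Lrrn3.

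**Figure D2:**
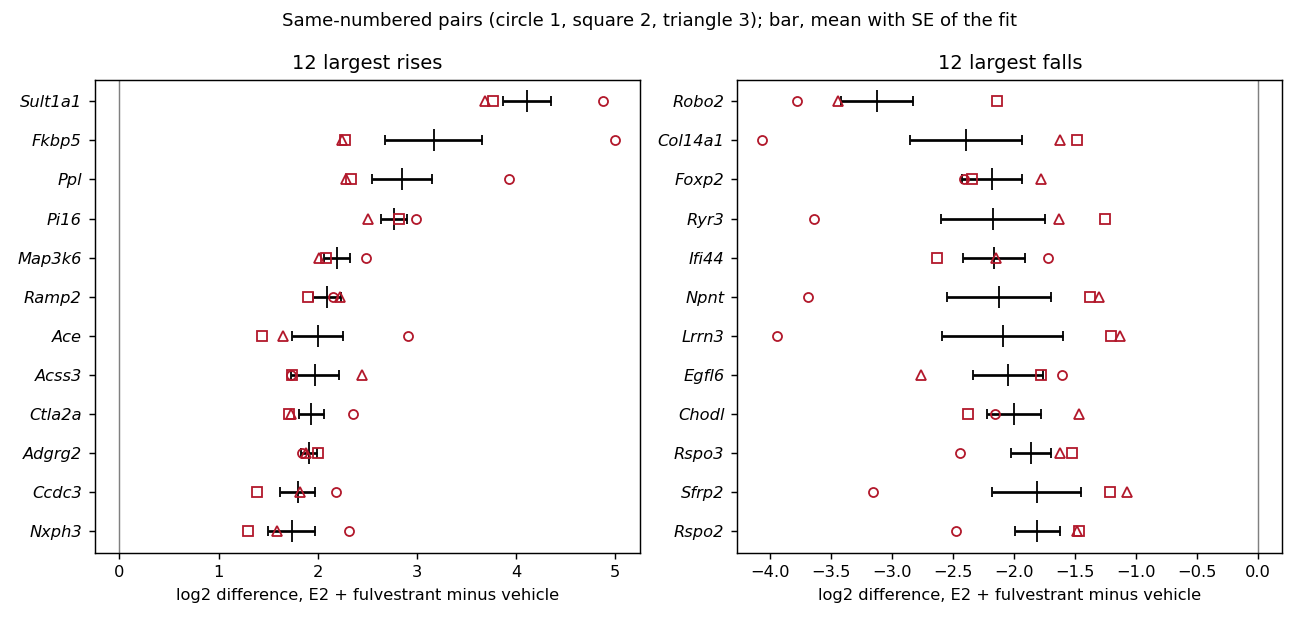
Log2 differences of E2 plus fulvestrant from vehicle for the 12 genes with the largest rise (left) and the 12 with the largest fall (right), where circle, square and triangle are pairs 1, 2 and 3 and the bar is the mean with the SE of the paired fit. Pair 1 is the outermost point for Fkbp5, Ppl, Ace, Col14a1, Ryr3, Npnt, Lrrn3 and Sfrp2, while the pairs of Adgrg2, Pi16 and Ramp2 lie close together.

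Glucocorticoid-responsive genes were the list with the largest share of higher members. The list was chosen with earlier results of these data known. It holds Sult1a1, Fkbp5 and Map3k6, which are among the largest rises, so its share describes these data and is no test. Of 28 tested, 21 were higher and 1 lower, against 6.72% and 5.46% of all genes, and the median log2 difference was 0.79. It was 1.01 in pair 1, 0.58 in pair 2 and 0.74 in pair 3. Among the receptor's feedback genes, 6 of 7 were higher: Fkbp5, Dusp1, Tsc22d3 (0.95 ± 0.17), Sgk1 (0.93 ± 0.08), Per1 (0.73 ± 0.10) and Zfp36 (0.60 ± 0.10), whereas Nfkbia, which encodes an inhibitor of NF-κB, had a difference of 0.09 ± 0.08 and was not called (adjusted p = 0.495). Dusp1, a phosphatase that switches off MAP kinases, had 196, 1586 and 1472 with vehicle and 1316, 3035 and 3052 with both agents. Its replicate 1 was far below the others with vehicle, so the groups overlapped while every pair rose (1.57 ± 0.32, adjusted p = 0.0208). Of 7 transcription factors in the list 5 were higher, Cebpd (1.21 ± 0.26), Cebpb (0.67 ± 0.06), Klf15 (0.62 ± 0.09), Bcl6 (0.61 ± 0.11) and Klf9 (0.49 ± 0.06). Of 14 genes of metabolism and stress 10 were higher and Gadd45b (−0.48 ± 0.08) was lower. Errfi1, a feedback inhibitor of the EGF receptor, rose from 716, 2433 and 2568 to 3316, 5733 and 6018 (1.56 ± 0.18, adjusted p = 0.00377). The metallothionein Mt2, which binds zinc, rose from 1168, 4435 and 3877 to 5403, 9319 and 9657 (1.53 ± 0.19, adjusted p = 0.00459), and neither it nor Errfi1 overlapped between groups. Calls lost when a replicate was left out of both groups were those of Tsc22d3, Zfp36, Dusp1, Cebpd, Klf15, Bcl6, Klf9 and Gadd45b without replicate 3 (adjusted p from 0.0524 to 0.0947). Moved by over 1.5 times without replicate 1, the log2 difference was 0.99 for Dusp1 and 0.74 for Cebpd.

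Promoter sequence is shown for the members of this list, of 24 members with a RefSeq promoter window (250 bases before to 50 after the start), whose window held the palindrome GNACANNNTGTNC, the half-sites that steroid receptors of the glucocorticoid receptor type bind. The motif was searched on both strands, and its match is in capitals. Of all 32851 windows 0.475% held it, as did 33 of the 9439 windows of genes tested (0.35%), and of the windows of genes called here it was in 7 of 708 higher genes (0.989%) and in 3 of 516 lower genes (0.581%).
Map3k6, chr4:133240607-133240679, + strand: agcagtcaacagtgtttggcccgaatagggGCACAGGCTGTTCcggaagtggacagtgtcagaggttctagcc
Mt1, chr8:94178965-94179037, + strand: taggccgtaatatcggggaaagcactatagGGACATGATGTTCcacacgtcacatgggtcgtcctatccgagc
Sgk1, chr10:21993672-21993744, + strand: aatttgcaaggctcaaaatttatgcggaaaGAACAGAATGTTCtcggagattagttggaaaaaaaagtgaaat
Coordinates and bases are of GRCm38.p6, and the matches end 169, 82 and 176 bases before the start. Map3k6 had 104, 113 and 111 normalized counts with vehicle and 588, 481 and 451 with both agents, 3 close values in each group (2.19 ± 0.13, adjusted p = 0.0005). Mt1, the other metallothionein of the list, had 1399.5, 4526 and 3673 and 3991, 6706 and 7206, and its replicate 1 was the lowest of each group (1.02 ± 0.15, adjusted p = 0.00868, and adjusted p = 0.0708 without replicate 3). Sgk1, a kinase that regulates ion transport, had 1323, 2000.0 and 1921 and 2163, 3947 and 4115 and was named after its values were seen (0.93 ± 0.08, adjusted p = 0.00144). A match is a description of these letters and not a bound site. The estrogen response element GGTCANNNTGACC was in 0.07% of all windows and in 0 of the 13 estrogen-responsive genes with a window, which says only that these letters are not within those bases.

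**Figure D3:**
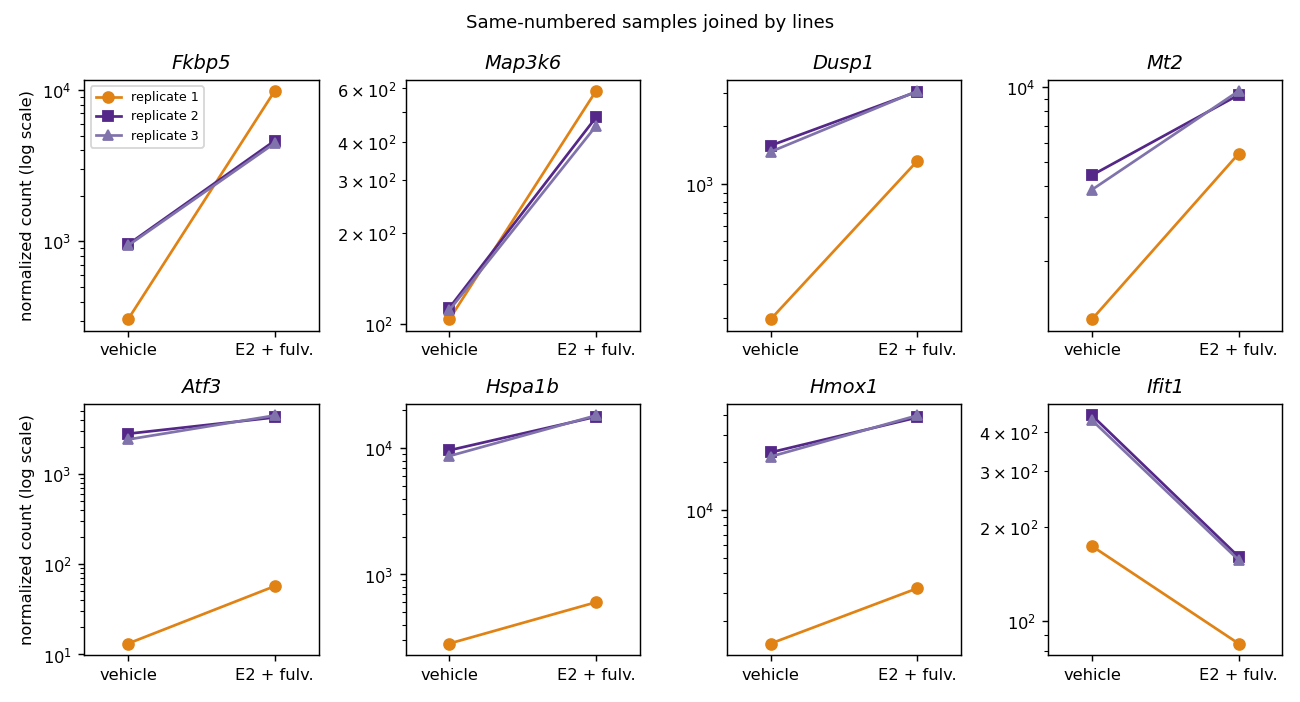
Normalized counts on a log axis of 8 genes with vehicle and with E2 plus fulvestrant, with same-numbered samples joined. Replicate 1 was the lowest vehicle sample in each of the 8 genes, by the least in Map3k6, and the lines of 3 pairs point up for the first 7 genes and down for Ifit1.

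Immediate early genes, transcription factors and phosphatases that cells switch on within minutes of a stimulus, were called higher in 16 of 26, against 6.72% of all genes. Their median log2 difference was 0.58. Fosl1, an AP-1 subunit, had 109, 1099 and 1089 with vehicle and 465, 2350.0 and 2588 with both agents (1.48 ± 0.17, adjusted p = 0.00390). Atf3, a stress-induced repressor, had 13.2, 2799.5 and 2418 and 57.1, 4244 and 4459, so that both values of replicate 1 lay far below all others (1.17 ± 0.24, adjusted p = 0.0233). Fosl2 rose from 2775, 8565 and 8662 to 12040.0, 13558 and 13319 (1.13 ± 0.27, adjusted p = 0.0357), Jun by 0.96 ± 0.23 and Klf4 by 0.85 ± 0.18. Fos (0.38 ± 0.16, adjusted p = 0.164) and Junb (0.45 ± 0.14, adjusted p = 0.0852) were not called. Leaving out a replicate ended the calls of Fosl2 and Jun without replicate 2 (adjusted p from 0.0533 to 0.0567) or without replicate 3 (adjusted p from 0.0897 to 0.101), and of Atf3 and Klf4 without replicate 3 (adjusted p from 0.0931 to 0.105). The log2 differences that moved over 1.5 times without replicate 1 became 0.74 for Atf3, 0.64 for Fosl2, 0.53 for Jun and 0.52 for Klf4. Replicate 1 was the lowest of each group in Fosl1, Atf3 and Fosl2, and the part of the replicate in the result was not tested. The promoter of Dusp1 is shown because it and that of Btg2 were the 2 of 21 windows of this list to hold the cAMP response element TGACGTCA, in capitals and searched on both strands, which 1.79% of all windows, 3.72% of those of genes tested, 3.39% of those of higher genes and 2.52% of those of lower genes held.
Dusp1, chr17:26508578-26508645, − strand: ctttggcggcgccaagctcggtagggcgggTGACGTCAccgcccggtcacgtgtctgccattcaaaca

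Of 21 genes known as targets of E2 in other tissues, 3 were higher and 5 lower, against 6.72% and 5.46% of all genes, with a median log2 difference of 0.00 that scaling to CPM moved to −0.04. Igf1, the growth factor whose gene ESR1 regulates in uterus and muscle, fell from 2474, 2419 and 2587 to 1647, 1674 and 1662, groups that were tight and apart (−0.58 ± 0.05, adjusted p = 0.00170). The IGF-binding proteins Igfbp5 (−1.43 ± 0.11, adjusted p = 0.00101) and Igfbp4 (−0.92 ± 0.11, adjusted p = 0.00423) fell too, and Igfbp5 had 208, 1635 and 1890.1 with vehicle and 95.5, 545 and 629.6 with both agents. The other lower members were Pgr, described above, and the chemokine gene Cxcl12 (−0.57 ± 0.05). The higher members were Slc7a5, a large amino acid transporter, with 6934, 7168 and 6746 against 12596, 12068 and 11656 (0.80 ± 0.06, adjusted p = 0.00078), the transcription factor Myc (0.78 ± 0.09, adjusted p = 0.00382) and the cyclin gene Ccnd1 (0.57 ± 0.13, adjusted p = 0.0336). No longer called were Ccnd1 without replicate 2 (adjusted p = 0.154) or without replicate 3 (adjusted p = 0.205).

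Of 14 genes of the IGF system, 5 were lower (Igf1, Igfbp3 at −1.04 ± 0.14, Igfbp4, Igfbp5 and the adaptor Irs1 at −0.48 ± 0.09) and 1, Igfbp6, was higher. Of all genes 5.46% were called lower and 6.72% higher. Igfbp6 rose from 22771, 21066 and 18709 to 57483, 29345 and 31623 (0.86 ± 0.16, adjusted p = 0.0158). In the EGF, HGF and neurotrophin group, 6 of 12 were higher and 1 lower, and over the settings that keep the block 1 to 7 were higher. Ereg, the EGF receptor ligand epiregulin, went from 432, 1098 and 1107 to 1499.9, 3442 and 3541 (1.71 ± 0.06, adjusted p = 0.00018). Gas6, the ligand of the receptor kinase Axl, had 50792, 27659 and 26855 and 142870.0, 49367 and 49709, with replicate 1 the highest of each group (1.07 ± 0.15, adjusted p = 0.00686). Hgf, the hepatocyte growth factor that fibroblasts supply to epithelium and muscle, fell from 206, 265 and 304 to 73.9, 97.2 and 121 (−1.41 ± 0.12, adjusted p = 0.00149). Over the 55 growth factor genes tested 10 were higher and 9 lower, a majority that turned in 7 alternatives. The counts were 8 and 9 with CPM, 7 and 10 with quantile scaling, 9 and 10 with all 12 samples, 1 and 4 with no variance trend, 5 and 8 at a fold change over 1.5, 5 and 9 without replicate 2 and 1 and 7 without replicate 3. The calls that depended on a replicate were those of Irs1, Igfbp6 and Gas6 without replicate 3 (adjusted p from 0.0569 to 0.104).

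Of 30 genes of steroid, retinoid and prostanoid metabolism 5 were higher and 2 lower, against 6.72% and 5.46% of all genes. Akr1c14, which reduces 3-keto steroids, fell from 197, 422 and 379 to 163, 136 and 116 (−1.20 ± 0.27, adjusted p = 0.0303), where E2 alone gave 1.13 ± 0.14 and fulvestrant alone −1.01 ± 0.38. Its highest treated sample, replicate 1, was below its lowest vehicle sample, also replicate 1. Aldh1a1, which makes retinoic acid, rose from 2095, 824 and 746 to 4973, 2878 and 2661 (1.63 ± 0.11, adjusted p = 0.00072). The cyclooxygenase genes, which start prostaglandin synthesis, were both higher, Ptgs2 by 0.91 ± 0.06 (adjusted p = 0.00058) and Ptgs1 by 0.58 ± 0.06 (adjusted p = 0.00236), and so were the prostaglandin exporter Abcc4 (0.43 ± 0.08) and the dehydrogenase Hsd17b12 (0.27 ± 0.05). Hsd11b1, which regenerates active glucocorticoid, had 33.1, 63.5 and 70.3 and 37.4, 165 and 149 and was not called (0.87 ± 0.25, adjusted p = 0.0618). Calls lost when a replicate was left out of both groups were those of Akr1c14, Abcc4 and Hsd17b12 without replicate 2 (adjusted p from 0.0578 to 0.145) or without replicate 3 (adjusted p from 0.0762 to 0.192).

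Among collagens and the enzymes that process them, 10 of 46 were higher and 8 lower, against 6.72% and 5.46% of all genes. Scaling to CPM made the counts 10 and 10, with a median of −0.01 in place of 0.04. The main fibrillar chains Col1a1 (−0.40 ± 0.12, adjusted p = 0.0665), Col1a2 (−0.29 ± 0.19, adjusted p = 0.345) and Col3a1 (−0.26 ± 0.16, adjusted p = 0.313) were not called. Col1a1 had 95391, 46852 and 46627 with vehicle and 63386, 39438 and 36068 with both agents, lower in each pair but overlapping. Other chains were called. Col12a1, a fibril-associated collagen, fell from 188320.0, 15042 and 17674 to 35252, 5446 and 5147, with replicate 1 far above the others in both groups (−1.89 ± 0.16, adjusted p = 0.00149). Col8a2 also fell (−1.16 ± 0.08, adjusted p = 0.00066), as did the fibrillar genes Col27a1 (−0.82 ± 0.13) and Col24a1 (−0.52 ± 0.09). Col5a3 rose from 1156, 660.3 and 682 to 3988, 1741 and 1773 (1.52 ± 0.09, adjusted p = 0.0005). Col6a2 was higher too (0.47 ± 0.09). The basement membrane chains Col4a1 and Col4a2, transcribed from one shared promoter region, were both higher, by 0.69 ± 0.08 and 0.56 ± 0.07. Of 21 processing genes 6 were higher, with the cross-linking enzyme Loxl4 (0.87 ± 0.08, adjusted p = 0.00210) the largest, and 3 lower, Adamts3, which trims procollagen (−1.35 ± 0.17, adjusted p = 0.00486), Loxl1 (−0.75 ± 0.18) and P3h2 (−0.56 ± 0.15). Leaving out a replicate ended the calls of Col6a2, Loxl1 and P3h2 without replicate 2 (adjusted p from 0.0568 to 0.237) or without replicate 3 (adjusted p from 0.0834 to 0.236), and of Col27a1 and Col24a1 without replicate 3 (adjusted p from 0.0678 to 0.0960). Leaving out replicate 1 moved the log2 difference by over 1.5 times, to −0.44 for Loxl1.

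Other matrix genes were called lower in 20 of 59 and higher in 4, against 5.46% and 6.72% of all genes. The tendon and cartilage markers present, of which Fmod and Comp are also counted here, summed to 7467 to 33603 with vehicle and 5541 to 19559 with both agents, 4 of 6 of them were lower, and the part of such cells in this result was not tested. In the elastic fiber and fibulin group 8 of 16 were lower, with a median log2 difference of −0.24. Mfap4, which binds elastic fibers, had 15189, 2308 and 2236 with vehicle and 5800.5, 1025 and 1035 with both agents, so that replicate 1 stayed above the others in each group and every pair fell (−1.22 ± 0.07, adjusted p = 0.0005). The microfibril gene Fbn2 fell from 4715, 2809 and 3222 to 1062, 1924 and 1932 (−1.14 ± 0.28, adjusted p = 0.0372). Among 17 proteoglycan genes 5 were lower, among them Lum, which spaces collagen fibrils (−1.13 ± 0.11, adjusted p = 0.00210), with Gpc6 (−0.69 ± 0.06), Fmod (−0.59 ± 0.11), Sdc2 (−0.48 ± 0.07) and Gpc4 (−0.47 ± 0.10), and 2 higher, Aspn and Vcan (1.09 ± 0.20). Aspn, a small proteoglycan that binds TGF-β, rose from 15678, 1801 and 1783 to 40230.0, 4914 and 5124, a like step in each pair (1.44 ± 0.06, adjusted p = 0.00023). Of 26 glycoprotein genes 7 were lower, and of these Cthrc1, a gene of activated fibroblasts, had the largest change (−1.59 ± 0.18, adjusted p = 0.00379). Lama2, the muscle laminin chain (1.18 ± 0.30, adjusted p = 0.0424), and Ecm1 (0.37 ± 0.07) were higher, while Fn1, fibronectin, was not called (0.33 ± 0.22, adjusted p = 0.350). No longer called were Gpc4 without replicate 2 (adjusted p = 0.0527) or without replicate 3 (adjusted p = 0.122), and Vcan and Lama2 without replicate 2 (adjusted p from 0.0563 to 0.123), and Fbn2, Fmod and Ecm1 without replicate 3 (adjusted p from 0.0776 to 0.114). With replicate 1 left out, the log2 difference moved by over 1.5 times to −0.64 for Fbn2 and 0.70 for Lama2.

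Matrix proteases and their inhibitors numbered 7 higher and 14 lower of 43, against 6.72% and 5.46% of all genes. Plaur, the receptor of urokinase, rose from 56.2, 312 and 336 to 183, 629 and 694 (1.25 ± 0.15, adjusted p = 0.00429). It overlapped between groups, with replicate 1 the lowest of each. Plau, which encodes urokinase (0.39 ± 0.09), and Timp1, an inhibitor of metalloproteinases (0.74 ± 0.06), were higher too. Of 16 ADAM and ADAMTS-type genes 7 were lower and 3 higher, Adamtsl4 (0.87 ± 0.13), Adamtsl5 (0.57 ± 0.12) and Adamts12 (0.43 ± 0.11). Adamtsl3 (−1.03 ± 0.19, adjusted p = 0.0162), Adamtsl1 (−1.02 ± 0.12, adjusted p = 0.00383) and the proteoglycan-cutting enzyme Adamts4 (−0.88 ± 0.15, adjusted p = 0.0117) were the lowest of them. Mmp16, a membrane-bound metalloproteinase, fell by 0.95 on the log2 scale (adjusted p = 0.00183), and Mmp2, the gelatinase, was not called (0.02 ± 0.11, adjusted p = 0.939). The calls that depended on a replicate were those of Plau without replicate 1 (log2 difference 0.24, a fold change under 1.2), and of Plau, Adamtsl5, Adamts12 and Adamts4 without replicate 2 (adjusted p from 0.0507 to 0.144) or without replicate 3 (adjusted p from 0.0632 to 0.125), and of Adamtsl3 without replicate 3 (adjusted p = 0.0644). Moved by over 1.5 times without replicate 1, the log2 difference was 0.24 for Plau, 0.37 for Adamtsl5 and 0.28 for Adamts12.

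In TGF-β and BMP signaling 7 of 70 genes were higher and 18 lower, against 6.72% and 5.46% of all genes. Ligands that were lower were Gdf10 (−2.08 ± 0.30), Bmp3 (−1.75 ± 0.20), Bmp4 (−0.95 ± 0.12) and Tgfb2 (−0.74 ± 0.11), and those higher were Inhbb (0.78 ± 0.19) and Bmp6 (0.56 ± 0.14), whereas Tgfb1 was not called (0.20 ± 0.08, adjusted p = 0.142). Gdf10 had 90.4, 444 and 457 with vehicle and 9.85, 159 and 140.3 with both agents (adjusted p = 0.00703). Of 8 genes that store and release latent TGF-β, 5 were lower, Ltbp1 (−0.58 ± 0.11), Ltbp2 (−0.55 ± 0.10), Itgb8 (−0.38 ± 0.10), Ltbp3 (−0.30 ± 0.07) and Ltbp4 (−0.28 ± 0.07). The BMP receptor gene Bmpr1b (−1.18 ± 0.24, adjusted p = 0.0211) and the activin receptor gene Acvr2a (−0.38 ± 0.06) were lower and Acvrl1 (0.76 ± 0.12) was higher. Among BMP inhibitors Nog (−1.04 ± 0.26) and Twsg1 (−0.30 ± 0.06) were lower and Grem1 (0.46 ± 0.12) was higher, and the transducer Smad3 was lower (−0.34 ± 0.07). The 4 Id genes, standard targets of BMP signals, were all lower: Id4 from 146, 129 and 143 to 55.1, 52.2 and 54.0 (−1.35 ± 0.15, adjusted p = 0.00326), and Id2, Id3 and Id1 by log2 differences of −0.94 ± 0.11, −0.80 ± 0.13 and −0.69 ± 0.17. Of the TGF-β targets, Ccn1 (0.67 ± 0.06) and the sphingosine kinase Sphk1 (1.44 ± 0.11, adjusted p = 0.00101) were higher, while Ccn2 (0.11 ± 0.07, adjusted p = 0.326) and Smad7 (−0.02 ± 0.07, adjusted p = 0.889) were not called. Calls lost when a replicate was left out of both groups were those of Ltbp3, Ltbp4 and Smad3 without replicate 1 (log2 difference −0.26 to −0.20, a fold change under 1.2), and of Itgb8, Ltbp3, Ltbp4, Nog, Twsg1, Grem1 and Id1 without replicate 2 (adjusted p from 0.0630 to 0.238) or without replicate 3 (adjusted p from 0.0834 to 0.271), and of Gdf10, Tgfb2, Inhbb, Bmp6, Ltbp1, Ltbp2, Bmpr1b, Acvr2a, Acvrl1 and Smad3 without replicate 3 (adjusted p from 0.0522 to 0.200). The log2 differences that moved over 1.5 times without replicate 1 became 0.45 for Inhbb, −0.77 for Bmpr1b, −0.62 for Nog and −0.39 for Id1.

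Wnt genes were lower in 15 of 42 and higher in 5, against 5.46% and 6.72% of all genes, with a median log2 difference of −0.21. The ligand Wnt5a was lower (−0.60 ± 0.07) beside Rspo2 and Rspo3, while Wnt9a (0.54 ± 0.13) and Rspo1 (0.38 ± 0.06) were higher. Of 17 receptor genes 6 were lower, with Fzd6 (−1.30 ± 0.20, adjusted p = 0.00999) and Fzd8 (−0.83 ± 0.19, adjusted p = 0.0318) at the front. Among the inhibitors Sfrp1 fell from 3945, 10884 and 10435 to 1813, 5383 and 5474, by nearly the same step in each pair (−1.02 ± 0.06, adjusted p = 0.0005), and Nkd1 was lower (−0.72 ± 0.15). The other higher genes were Tcf7l1 (0.72 ± 0.09), Vangl1 (0.62 ± 0.05) and Ccnd1, and Prickle1 (−0.71 ± 0.10), Vangl2 (−0.43 ± 0.10) and Prickle2 (−0.36 ± 0.07), of planar polarity, were lower. The pathway's transducer Ctnnb1 (−0.06 ± 0.07, adjusted p = 0.616) and its feedback target Axin2 (−0.34 ± 0.22, adjusted p = 0.337) were not called. Leaving out a replicate ended the calls of Wnt9a, Rspo1, Fzd8, Nkd1, Vangl2 and Prickle2 without replicate 2 (adjusted p from 0.0509 to 0.106) or without replicate 3 (adjusted p from 0.0630 to 0.158), and of Prickle1 without replicate 3 (adjusted p = 0.0567). Leaving out replicate 1 moved the log2 differences by over 1.5 times, to 0.36 for Wnt9a and −0.49 for Fzd8.

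Guidance and adhesion genes were lower in 24 of 76 and higher in 9, against 5.46% and 6.72% of all genes, with a median of −0.20. Unc5c, a netrin receptor, fell from 1780.0, 2066 and 2542 to 647, 935 and 894 (−1.37 ± 0.08, adjusted p = 0.0005). Epha7, an ephrin receptor, fell from 718, 217 and 213 to 124, 126 and 91.7 (pairs at −2.52, −0.77 and −1.21, adjusted p = 0.0211), and Sema6a, a semaphorin, by a log2 difference of −1.01 ± 0.17 (adjusted p = 0.0116). Nrp2, a receptor for semaphorins and VEGF, had 12925, 17757 and 19727 with vehicle and 4979, 11515 and 11450.0 with both agents, with no overlap (−0.93 ± 0.14, adjusted p = 0.00763). Pcdh18, a protocadherin, also fell (−0.92 ± 0.12, adjusted p = 0.00588). Of 18 integrin genes 2 were higher, Itga5 (0.65 ± 0.06) and Itga6 (0.64 ± 0.11), and 2 lower, Itga11 (−0.43 ± 0.08) and Itgb8. No longer called were Itga6 without replicate 2 (adjusted p = 0.0731) or without replicate 3 (adjusted p = 0.105), and Epha7, Sema6a, Nrp2 and Itga11 without replicate 3 (adjusted p from 0.0522 to 0.107). With replicate 1 left out, the log2 difference moved by over 1.5 times to −0.99 for Epha7.

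Contractile and myofibroblast genes were higher in 10 of 42 and lower in 4, against 6.72% and 5.46% of all genes. Acta2, the smooth muscle actin by which myofibroblasts are recognized, had 4933, 2592 and 2540.2 with vehicle and 3466, 2504 and 2671 with both agents and was not called (−0.16 ± 0.11, adjusted p = 0.352), and neither was Tagln (−0.16 ± 0.11, adjusted p = 0.360). Actn1, which cross-links actin, rose from 8272, 7248 and 7451 to 15921, 13491 and 13383 (0.90 ± 0.06, adjusted p = 0.00063), and Mylk, the kinase that starts smooth muscle contraction, fell from 1770.0, 1273 and 1329 to 890.3, 674 and 708 (−0.94 ± 0.06, adjusted p = 0.0006). Piezo2, a mechanically gated channel, fell from 2330.3, 3957 and 4934 to 984, 1331 and 1256, with every treated sample below every vehicle sample (−1.60 ± 0.12, adjusted p = 0.00101). Its relative Piezo1 was higher (0.38 ± 0.07), and the potassium channel gene Kcnma1 (−0.32 ± 0.06) and the tropomyosin Tpm1 (−0.45 ± 0.10) were lower. Among the regulators 5 of 12 were higher, Ankrd1 (0.78 ± 0.17), Ccn1, Srf (0.35 ± 0.08), Rock2 (0.33 ± 0.07) and Mrtfa (0.27 ± 0.06). Flnc, a filamin, was higher as well (0.72 ± 0.12). The calls that depended on a replicate were those of Mrtfa without replicate 1 (log2 difference 0.20, a fold change under 1.2), and of Piezo1, Kcnma1, Tpm1, Ankrd1, Srf, Rock2 and Mrtfa without replicate 2 (adjusted p from 0.0793 to 0.155) or without replicate 3 (adjusted p from 0.0888 to 0.186), and of Flnc without replicate 2 (adjusted p = 0.0527). Moved by over 1.5 times without replicate 1, the log2 difference was −0.29 for Tpm1.

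Of 26 genes that mark fibroblast progenitors 6 were higher and 5 lower, against 6.72% and 5.46% of all genes. Beside Pi16, Adamtsl4 (0.87 ± 0.13, adjusted p = 0.00803) and Anxa3 (0.67 ± 0.08, adjusted p = 0.00374) were higher. Meox1, a homeobox gene of activated fibroblasts, fell from 1715, 943 and 865 to 369, 429 and 463 (−1.42 ± 0.23, adjusted p = 0.0102), and Limch1 (−0.75 ± 0.19, adjusted p = 0.0452), Sema3c (−0.68 ± 0.07, adjusted p = 0.00231), Thy1 (−0.62 ± 0.16) and Dpt (−0.33 ± 0.07) were lower. Calls lost when a replicate was left out of both groups were those of Dpt without replicate 1 (log2 difference −0.24, a fold change under 1.2), and of Limch1, Thy1 and Dpt without replicate 2 (adjusted p from 0.0583 to 0.187) or without replicate 3 (adjusted p from 0.0597 to 0.124). The log2 difference that moved over 1.5 times without replicate 1 became −0.41 for Limch1.

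Of 35 cell cycle brakes and drivers 8 were higher and 1 lower, and of 66 DNA replication and mitosis genes 4 were higher, against 6.72% and 5.46% of all genes. Of 20 brakes, Cdkn1c, the imprinted CDK inhibitor, rose from 8584, 3050.1 and 2859.6 to 19772, 5231 and 5412 (0.97 ± 0.08, adjusted p = 0.00149), Gadd45g (0.72 ± 0.14) and Gas1 (0.36 ± 0.06) were higher, and Plagl1, an imprinted zinc finger gene that slows growth, fell from 29706, 11010.0 and 11839 to 11915, 6311 and 6184 (−1.02 ± 0.10, adjusted p = 0.00210). Cdkn1a was not called (0.19 ± 0.06, adjusted p = 0.0654). Of 15 drivers 5 were higher, Myc, Ccne2 (0.74 ± 0.20), Ccnd1, Cdk6 (0.40 ± 0.07) and Ccnd3 (0.30 ± 0.06). Among 35 DNA replication genes Mcm5 (0.82 ± 0.11, adjusted p = 0.00549), Pcna (0.45 ± 0.06, adjusted p = 0.00607), Mcm2 (0.33 ± 0.07) and Slbp (0.30 ± 0.07) were higher. Of 31 mitosis genes limma called 0, with 0 at an unadjusted p under 0.05 and 0 by voom, and Mki67, the proliferation marker, had 329.8, 331 and 373 and 291, 335 and 354 (−0.08 ± 0.09, adjusted p = 0.612). Apoptosis regulators were higher in 5 of 32 and lower in 3, which CPM turned to 1 and 3. Mcl1, an inhibitor of apoptosis, was higher (0.55 ± 0.09, adjusted p = 0.0128), as were Cycs (0.33 ± 0.08), Bak1 (0.33 ± 0.07), Tnfrsf1a (0.31 ± 0.07) and Mdm2 (0.31 ± 0.05), while its relative Bcl2 (−0.41 ± 0.07, adjusted p = 0.0110), the death receptor Fas (−0.48 ± 0.07, adjusted p = 0.00790) and the killer protein gene Bcl2l11 (−0.34 ± 0.08, adjusted p = 0.0338) were lower. Leaving out a replicate ended the calls of Ccnd3 and Tnfrsf1a without replicate 1 (log2 difference 0.21 to 0.25, a fold change under 1.2), and of Ccne2 without replicate 1 (adjusted p = 0.0696), and of Gadd45g, Gas1, Ccne2, Cdk6, Ccnd3, Mcm2, Slbp, Cycs, Bak1, Tnfrsf1a, Mdm2, Bcl2 and Bcl2l11 without replicate 2 (adjusted p from 0.0537 to 0.157) or without replicate 3 (adjusted p from 0.0611 to 0.218), and of Mcm5, Pcna, Mcl1 and Fas without replicate 3 (adjusted p from 0.0591 to 0.0789).

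Heat shock genes were higher in 12 of 34, against 6.72% of all genes, with a median log2 difference of 0.25. Hspa1b, an inducible HSP70, had 283, 9669.6 and 8706 with vehicle and 602, 17839 and 18247 with both agents, so that replicate 1 lay far below the others in both groups (1.01 ± 0.06, adjusted p = 0.0005). Hspa1a is a near-identical copy whose reads may be split with it (0.96 ± 0.06). The small heat shock gene Hspb1 (0.82 ± 0.14, adjusted p = 0.0118), the cytosolic chaperone Hsp90aa1 (0.56 ± 0.09, adjusted p = 0.00965), Cryab (0.52 ± 0.14, adjusted p = 0.0492) and the cochaperone Bag3 (0.48 ± 0.06, adjusted p = 0.00358) were higher too. The median difference of the small heat shock and chaperonin group was 0.06 in pair 1, 0.47 in pair 2 and 0.50 in pair 3. Amino acid stress genes of the integrated stress response were higher in 10 of 25 and lower in 1, Aldh1l2 (−0.40 ± 0.09). Over the settings that keep the block, 3 to 15 of them were higher. The cystine transporter Slc7a11 rose from 301, 2075 and 2193 to 657, 4019.9 and 3845 (0.96 ± 0.07, adjusted p = 0.00091), and its partner Slc3a2 from 6585, 6447 and 6211 to 9315, 9357 and 9525 (0.55 ± 0.06, adjusted p = 0.00236). Ddit3, a death-promoting factor of this response, was not called (−0.03 ± 0.05, adjusted p = 0.771). Of 19 unfolded protein response genes limma called 0, with 2 at an unadjusted p under 0.05 and 0 by voom, and the chaperone Hspa5 had a difference of 0.06 ± 0.08 (adjusted p = 0.641). No longer called were Hspb1, Hsp90aa1, Cryab and Aldh1l2 without replicate 2 (adjusted p from 0.0507 to 0.190) or without replicate 3 (adjusted p from 0.0762 to 0.247).

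Glycolysis genes were higher in 10 of 20, with a median of 0.34, where 6.72% of all genes were called higher and 5.46% lower. Slc2a1, the glucose transporter, had 872, 5926 and 5741 with vehicle and 1193, 10279 and 10426 with both agents (0.70 ± 0.08, adjusted p = 0.00403). Hexokinase Hk2 (0.57 ± 0.10, adjusted p = 0.0140), phosphofructokinase Pfkp (0.50 ± 0.05, adjusted p = 0.00244) and the lactate exporter Slc16a3 (0.69 ± 0.15, adjusted p = 0.0282) were higher. Of 8 genes of the HIF system itself limma called 0, with 1 at an unadjusted p under 0.05 and 0 by voom, and Hif1a had a difference of 0.25 ± 0.06 (adjusted p = 0.0321) that stayed under a fold change of 1.2. Among HIF targets 6 of 13 were higher and Adm (−0.29 ± 0.07) was lower, and Ndrg1 had the largest rise, from 4331, 5612 and 5496 to 7962, 9042 and 9176 (0.77 ± 0.06, adjusted p = 0.00102). In the oxidative stress list 17 of 41 were higher and 2 lower, Ahr and Prdx4 (−0.43 ± 0.05). In the group of the antioxidant factor NRF2 9 of 13 were higher, with a median of 0.45. That group holds targets of NRF2 together with its own gene Nfe2l2 and its inhibitor Keap1. Over the settings that keep the block, 4 to 18 genes of the list and 3 to 10 of the group were higher. Hmox1, heme oxygenase, had 1436, 23141 and 21763 and 3203, 38438 and 39558, a low replicate 1 in both groups (0.92 ± 0.09, adjusted p = 0.00210). Nqo1, which is counted with the Ahr genes and not in that group, was not called (0.08 ± 0.10, adjusted p = 0.634). Gpx3, a secreted peroxidase, rose from 227, 239 and 231 to 1099, 522 and 553 (1.55 ± 0.21, adjusted p = 0.00603). Ahr, the dioxin receptor gene, fell from 1986, 766 and 773 to 341, 351 and 313 (−1.66 ± 0.25, adjusted p = 0.00826), while its target and repressor Tiparp rose (1.12 ± 0.14, adjusted p = 0.00460) and its target Cyp1b1 was not called (−0.12 ± 0.09, adjusted p = 0.396). The calls that depended on a replicate were those of Adm without replicate 1 (log2 difference −0.20, a fold change under 1.2), and of Hk2, Slc16a3 and Adm without replicate 2 (adjusted p from 0.0843 to 0.126) or without replicate 3 (adjusted p from 0.0924 to 0.194), and of Ahr without replicate 3 (adjusted p = 0.0522).

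Immune genes were lower in 15 of 55 and higher in 2, against 5.46% and 6.72% of all genes, with a median log2 difference of −0.19. The interferon response group held 10 of the lower genes, of 22 tested, with a median of −0.30. Ifit1, which binds foreign RNA caps, fell from 173, 452 and 437 to 84.7, 160.4 and 156, with no overlap and replicate 1 the lowest of each group (−1.33 ± 0.14, adjusted p = 0.00231). The antiviral GTPase gene Mx2 fell from 114, 152 and 157 to 46.3, 78.8 and 72.0 (−1.11 ± 0.15, adjusted p = 0.00639), Usp18 from 86.0, 124 and 128 to 43.3, 65.1 and 50.4 (−1.07 ± 0.17, adjusted p = 0.0102) and Oasl2 by a log2 difference of −0.91 ± 0.13 (adjusted p = 0.00772). The promoter window of Ifit1 is shown because 9 of the 19 windows of this group (47.4%) held TTTCNNTTTC, the core of the interferon-stimulated element, against 3.56% of tested genes, 3.53% of higher genes and 6.01% of lower genes, and 3.44% of all windows. Both strands were searched and the 2 matches are in capitals.
Ifit1, chr19:34640755-34640843, + strand: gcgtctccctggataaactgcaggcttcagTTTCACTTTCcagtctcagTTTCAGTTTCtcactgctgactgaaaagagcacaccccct
The macrophage and immune markers Cd68 and Lyz2 summed to 161 to 389 with vehicle and 131 to 188 with both agents, and Lyz2, a lysozyme gene of macrophages, fell (−0.96 ± 0.18, adjusted p = 0.0175). The other marker, Cd68, had a difference of 0.20 ± 0.19 (adjusted p = 0.527) and was not called. Of the 12 markers 10, Ptprc and Adgre1 among them, were not listed, and the part of immune cells in these falls was not tested. Of the chemokines Cxcl5 (−1.47 ± 0.17, adjusted p = 0.00383), Cxcl16 (−0.61 ± 0.13) and Cxcl12 were lower, and Ccl2 was not called (0.38 ± 0.34, adjusted p = 0.508). Il1rl1, the receptor of IL-33, rose from 257, 1756 and 1695 to 1796, 3702 and 3654 (1.66 ± 0.31, adjusted p = 0.0167), and the other higher immune gene was the macrophage growth factor Csf1 (0.37 ± 0.07). Calls lost when a replicate was left out of both groups were those of Usp18, Lyz2, Cxcl16 and Csf1 without replicate 2 (adjusted p from 0.0505 to 0.146) or without replicate 3 (adjusted p from 0.0681 to 0.122), and of Mx2, Oasl2 and Il1rl1 without replicate 3 (adjusted p from 0.0635 to 0.0661). Leaving out replicate 1 moved the log2 difference by over 1.5 times, to 1.09 for Il1rl1.

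Among peptide hormone genes, Ramp3, a partner of the calcitonin receptor-like receptor, rose from 44.1, 50.5 and 47.5 to 179, 124 and 108 (1.48 ± 0.21, adjusted p = 0.00669), while that receptor's gene Calcrl was not called (0.75 ± 0.23, adjusted p = 0.0774). In this group 5 of 17 were higher, with Ramp2, Ace, Avpr1a (0.84 ± 0.11) and Lpar1 (0.66 ± 0.14), and 3 lower, S1pr3, a lipid receptor gene (−1.01 ± 0.20, adjusted p = 0.0220), Adra1d (−0.95 ± 0.14) and Agtr2 (−0.57 ± 0.08). Of all genes tested 6.72% were called higher and 5.46% lower. In cAMP signaling Rgs16, which shortens G protein signals, was higher (1.11 ± 0.19, adjusted p = 0.0136) and the phosphodiesterase gene Pde1c lower (−1.21 ± 0.25, adjusted p = 0.0232). Of 59 sterol and fatty acid genes 3 were higher, Nr1h3 (0.86 ± 0.18, adjusted p = 0.0230), Plin2 (0.62 ± 0.13) and Insig1 (0.33 ± 0.07), and 4 lower, Ppargc1a (−0.79 ± 0.13, adjusted p = 0.0110), Fads2 (−0.61 ± 0.06), Mgll (−0.41 ± 0.06) and Fads1 (−0.27 ± 0.05). These sterol and fatty acid counts lie near the shares of all genes, 6.72% higher and 5.46% lower. Of 20 clock genes Per1 was higher and Hlf (−0.53 ± 0.11) lower, again near the 6.72% and 5.46% of all genes. Arntl (0.16 ± 0.14, adjusted p = 0.479) and Per2 (−0.17 ± 0.13, adjusted p = 0.432) were not called. Of 44 respiratory chain genes 1 was higher, Atp5g1 (0.28 ± 0.07). Of 44 ribosomal protein genes limma called 0, with 0 at an unadjusted p under 0.05 and 0 by voom. Leaving out a replicate ended the calls of Avpr1a, S1pr3, Pde1c, Nr1h3, Plin2, Insig1, Ppargc1a, Mgll, Fads1, Hlf and Atp5g1 without replicate 2 (adjusted p from 0.0541 to 0.172) or without replicate 3 (adjusted p from 0.0529 to 0.254), and of Lpar1, Adra1d, Agtr2 and Rgs16 without replicate 3 (adjusted p from 0.0522 to 0.0897). With replicate 1 left out, the log2 difference moved by over 1.5 times to 0.42 for Lpar1.

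**Figure D4:**
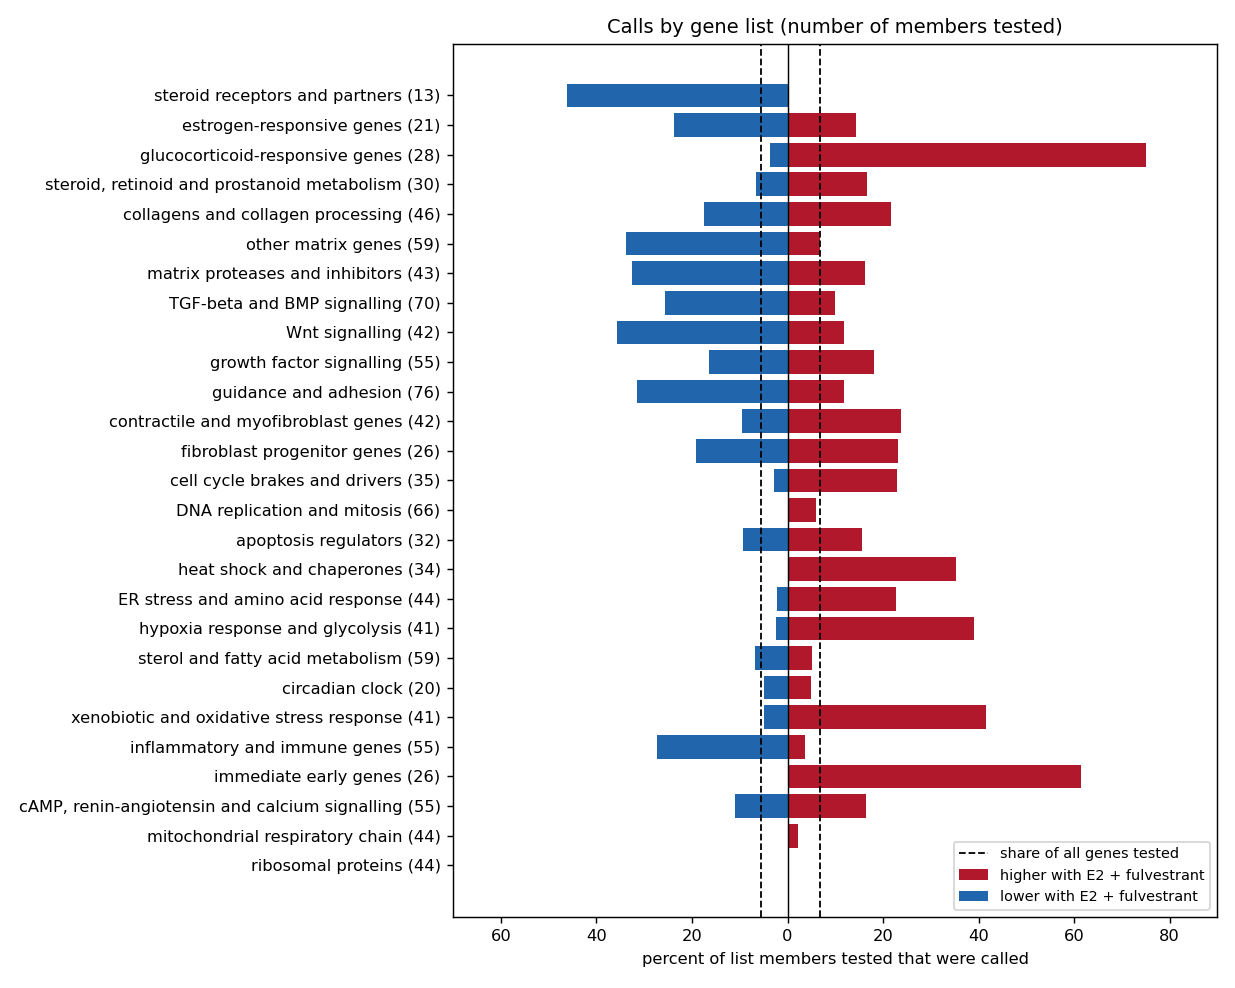
Share of the tested members of each gene list that was called higher (red, right) or lower (blue, left) with E2 plus fulvestrant than with vehicle, as percent of members, with the number tested in brackets and dashed lines at the share of all genes (6.72% higher, 5.46% lower). The widest red bars are those of the glucocorticoid-responsive and immediate early genes, and the widest blue bars those of the steroid receptor, Wnt and other matrix lists. The lists were chosen with earlier results of these data known.

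Among genes changed over 1.5-fold, those with the highest counts included structural and secreted proteins. Counts were not divided by gene length, so levels of different genes are not compared. Gsn, the actin-severing protein gelsolin, rose from 46094, 64285 and 61053 to 192097, 130303 and 129568 (1.39 ± 0.23, adjusted p = 0.0114), and Fth1, the iron-storage protein ferritin, from 55608, 78492 and 69337 to 117839, 108146 and 111531 (0.74 ± 0.17, adjusted p = 0.0322). Neither overlapped between groups. The others on the higher side were Gas6, Igfbp6, Col4a1 and Hmox1. Postn, periostin, a matrix protein of scars, fell from 23522, 121516 and 122291 to 10922, 67852 and 68251 (−0.93 ± 0.12, adjusted p = 0.00455). Meg3, an imprinted long noncoding RNA, fell by a log2 difference of −0.59 ± 0.11 (adjusted p = 0.0176), the matrix proteins Thbs2 and Abi3bp by −0.63 ± 0.10 and −1.48 ± 0.17, and the cadherin Cdh11, which joins fibroblasts, by −0.64 ± 0.12, beside Col12a1. No longer called were Fth1, Meg3, Thbs2 and Cdh11 without replicate 2 (adjusted p from 0.0548 to 0.126) or without replicate 3 (adjusted p from 0.0808 to 0.164), and Gsn without replicate 3 (adjusted p = 0.0672).

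Whether E2 added anything to fulvestrant was asked by comparing E2 plus fulvestrant with fulvestrant alone, in which vehicle takes no part. With the replicate block limma called 0 of 13233 genes (0%), and 516 genes (3.9%) had an unadjusted p under 0.05. The same comparison without the block also gave 0 genes and 26 at an unadjusted p under 0.05, while without replicate 1 it gave 147 genes, 42 higher and 105 lower, without replicate 2 it gave 1, and without replicate 3 it gave 0. For Esr1 the difference between the combination and fulvestrant alone was −0.08 ± 0.14 with a 95% interval from −0.39 to 0.23, for Pgr it was 0.42 ± 0.28 (−0.21 to 1.04), and for Fkbp5 it was 0.10 ± 0.05 (−0.01 to 0.21), each on the log2 scale. These 3 intervals spanned 0. The 95% intervals of 24 of the 191 genes chosen for naming did not, 14 above 0 and 10 below, in genes chosen on the same combination samples and with no adjusted p under 0.427. Those with the smallest unadjusted p were Col5a3 (0.33 ± 0.05, 0.21 to 0.44) and Col12a1 (−0.29 ± 0.05, −0.40 to −0.19), each at an adjusted p = 0.427 by limma. For the 12 largest rises the differences ran from 0.01 to 0.50, and 5 intervals lay above 0, those of Ramp2 (0.50 ± 0.13, 0.21 to 0.80), Pi16 (0.39 ± 0.14, 0.08 to 0.70), Ppl (0.24 ± 0.08, 0.06 to 0.43), Adgrg2 (0.21 ± 0.08, 0.03 to 0.40) and Ace (0.15 ± 0.07, 0.004 to 0.30). For the 12 largest falls they ran from −0.30 to 0.11, and 0 of the 12 intervals left out 0.

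The combination and E2 alone differed in 1148 genes (8.68%), 609 higher and 539 lower with fulvestrant added, and in 8 genes without the block. Without replicates 1, 2 and 3 in turn this count was 1956, 736 and 351. This comparison shares the combination samples with that against vehicle, so it gives no independent support to the genes named there. Esr1 differed by −2.26 ± 0.21 (adjusted p = 0.00242), Pgr by −3.28 ± 0.17 (adjusted p = 0.00038), Akr1c14 by −2.33 ± 0.15 (adjusted p = 0.00069) and Igf1 by −0.78 ± 0.05 (adjusted p = 0.00061). Of the 28 glucocorticoid-responsive genes 19 were higher and 1 lower than with E2 alone, and of the 26 immediate early genes 16 were higher.

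Against the same vehicle samples, the values of each treatment stand side by side. For the 12 largest rises the log2 differences ran from 1.59 to 3.95 with fulvestrant alone and from −0.02 to 0.96 with E2 alone, and for the 12 largest falls from −2.98 to −1.77 and from −0.65 to −0.00. The median of the glucocorticoid-responsive genes was 0.79 with the combination, 0.80 with fulvestrant and 0.06 with E2. Some of the genes described above were far from vehicle with E2 alone too, with log2 differences of 0.96 ± 0.19 for Ramp2, 0.84 ± 0.14 for Ppl, 1.05 ± 0.07 for Aspn, 1.10 ± 0.11 for Gpx3, 0.81 ± 0.09 for Col5a3 and −0.81 ± 0.15 for Bmp3. The vehicle samples are shared between these 3 comparisons, and the tests of the combination against each agent alone are those given above.

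**Figure D5:**
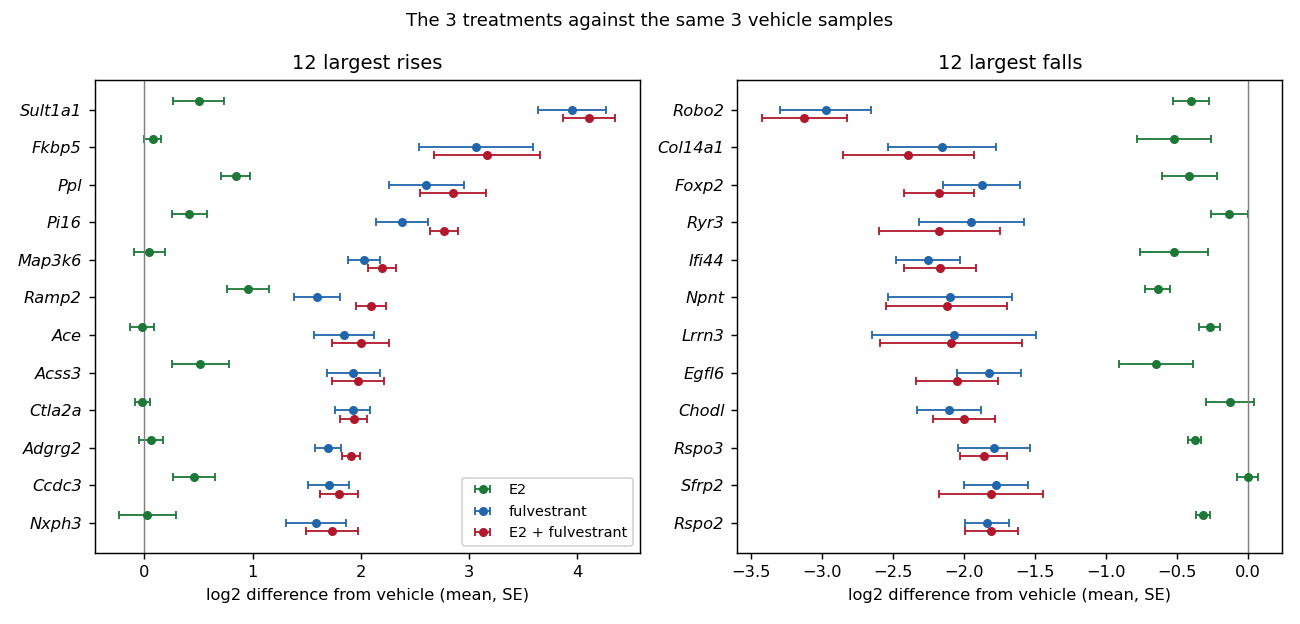
Log2 differences from the same 3 vehicle samples (mean and SE of the paired fit) with E2 alone (green), fulvestrant alone (blue) and both (red), for the 12 genes with the largest rise (left) and fall (right) under both agents. Fulvestrant alone ran from 1.59 to 3.95 for the rises and from −2.98 to −1.77 for the falls, and E2 alone lay between −0.65 and 0.96 throughout.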

How the data were processed

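Total RNA of HAFs from 12 samples was sequenced after ribosomal RNA removal, and 6 samples, 3 with vehicle and 3 with E2 plus fulvestrant, entered this comparison. The deposited values are a normalized signal, which the authors made by trimming with Trimmomatic 0.39, removing ribosomal reads with SortMeRNA, aligning to mm10 with STAR 2.5.2, counting with HTSeq 0.13.5 on the reverse strand and dividing counts by DESeq2 1.37 size factors after removing low counts. A batch adjustment is named in the methods of the study, and the values still separate by replicate number. Dividing each value by the worth of 1 read gave whole numbers within a tolerance of 0.01, with at least 10 reads for each gene and sample, so genes with fewer reads are not analysed here. Depth was 26280424 to 44040507 reads per sample over the 6 samples.

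limma 3.58.1 in R 4.3.3 was run on log2(value + 1), with a variance trend and the replicate number as a block, over all 13233 genes, and p-values were adjusted by the Benjamini-Hochberg method over all of them. Calls needed an adjusted p under 0.05 together with a fold change over 1.2, and fold changes of low genes are understated by the added 1. Fulvestrant alone and E2 alone were compared with the combination in the same way. The replicate numbers come from the titles, and samples with the same number deviated from their group means together (correlations of 0.86, 0.70 and 0.70), although vehicle replicate 2 and treated replicate 3 correlated at 0.76. The fits were run on simulated reads with known changes as a check of the calculation only. There each replicate shifted both groups alike, whereas pair steps differ in these data, as for Fkbp5 and Col14a1. The simulation therefore says nothing of the error rate here.

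The members and gene lists were chosen with earlier results of these data known. The genes named are the checks Esr1, Pgr, Nr3c1 and Pdgfra, the 12 largest rises and 12 largest falls among called genes whose groups did not overlap, the 6 most abundant called genes over 1.5-fold in each direction, and in each list up to 6 called members with the largest change and up to 3 uncalled members on which the list turns. Genes named to fill out a small count or a role, and Sgk1, were named after their values were seen. Greb1 is not analysed here. A few members counted in their lists are not reported here by name. Promoter windows are those of RefSeq on GRCm38.p6, and 9439 of the genes tested matched one by symbol. The alternatives were no block, a block of replicate 1 against the others, other added constants, a filter on the mean, all 12 samples, no trend, quantile, CPM and TMM scaling, other fold limits and leaving out each replicate. voom was added after seeing the data.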

Additional observations from a re-analysis of the deposited data

How the results depend on the processing

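Of 158 called genes named in the text none changed direction in any of 16 alternatives. With the replicate block 889 genes were higher and 723 lower. The same fit with no replicate block gave 2 higher and 1 lower, and for the combination against E2 it gave 8 in place of 1148, while a block of replicate 1 against replicates 2 and 3 gave 1065 and 956. Without the variance trend 168 were higher and 224 lower, and with a fold change over 1.5 the counts were 280 and 342. Leaving out each replicate in turn gave 187 to 1183 higher and 165 to 976 lower genes, 0 to 147 genes between the combination and fulvestrant, and 351 to 1956 between the combination and E2, the low ends without replicate 3 and the high ends without replicate 1. Fewer samples enter each such fit, and the cause of the rise without replicate 1 was not tested. Quantile (680 and 658), CPM (643 and 884) and TMM (778 and 758) scaling, voom (957 and 788, chosen after seeing the data), all 12 samples (932 and 749), a mean of at least 100 (865 and 675) and adjusted p alone (1066 and 791) stayed within 1.5 times the main counts. Growth factor, collagen, cAMP and apoptosis lists had the direction with more calls turn or draw level under CPM, and that of the growth factor list turned in 7 alternatives in all. The edgeR and DESeq2 fits were planned but not run. Samples in which a gene has few reads limit the precision for low genes such as Foxp2, Ifi44 and Pgr.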

Other observations

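Further gene families were chosen after their values were seen, and are given as counts. Some members, such as Oasl2, Anxa3 and Gbp2, are also counted in the lists above. Of all genes 6.72% were called higher and 5.46% lower, and families chosen in this way cannot be tested against those shares. Annexins, calcium-dependent membrane-binding proteins, were higher in 4 of 10 (Anxa8, Anxa1, Anxa3 and Anxa2) and lower in none, with a median log2 difference of 0.24, and S100 proteins, some of which pair with them, were higher in 3 of 8 (S100a6, S100a10 and S100a16), with a median of 0.48. The Serpina3 cluster, secreted protease inhibitors of the acute phase, was higher in 2 of 3 genes, Serpina3n and Serpina3m, which are near-identical copies, so that their reads may be split between them. Of the Lrrc8 subunits of the volume-regulated anion channel 3 of 4 were higher. Guanylate-binding proteins, which interferon induces, were lower in 4 of 5, with a median of −0.59, and 2 of 3 genes of the 2-5A synthetase family, Oasl2 and Oas1b, were lower.

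Of 14 records between Meg3 and Rian on chromosome 12, an imprinted stretch that holds noncoding RNAs and the protein-coding gene Rtl1, 5 were lower and none higher, with a median of −0.60, and several of these records overlap one another. Of 27 Hox genes 3 were lower, Hoxa10, Hoxa9 and Hoxa3. Among 323 zinc finger genes named Zfp, 17 were lower and 4 higher, and among 193 solute carriers 28 were higher and 11 lower, where 6.72% of all genes were called higher and 5.46% lower.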
